A study of Mus musculus with 4 samples.

Results

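The TALE homeobox genes examined here are Meis1, Meis2, Meis3, Pbx2, Pbx3, Pknox1, Pknox2 and Tgif1, 8 of the 19937 genes that had a probe set of their own on the array. They were grouped by gene family, with earlier results of these data already known, and each had 1 such probe set. All 8 lay above the filter on dim genes, which left 13956 genes for testing. TALE proteins carry extra residues in a loop of the DNA-binding homeodomain and act as cofactors for other transcription factors. MEIS and PKNOX (PREP) proteins form heterodimers with PBX proteins, and this contact helps to bring them into the nucleus and onto DNA. In the adult subventricular zone, MEIS2 binds PAX6 and takes part in the formation of olfactory bulb neurons, while TGIF proteins are repressors that dampen TGF-beta and retinoid signalling.

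Cells came from the lateral ventricle walls of C57BL/6 mice aged 9 to 12 weeks and grew as primary neurospheres, floating cultures of neural stem and progenitor cells. The olaparib group of 2 arrays received 100 nM olaparib, a blocker of PARP1 and PARP2, in 0.01% DMSO, and the DMSO group of 2 arrays received 0.01% DMSO alone. Both groups were transfected with non-targeting control siRNAs and transduced with pCLIG-Pax6 virus, so forced Pax6 is shared by every array, and RNA was taken 10 h after growth factor withdrawal and plating on laminin. The cells were not sorted for transduction in the labels' protocols, viral and endogenous Pax6 were not told apart, and replicates are called biological without saying whether they came from separate animals.

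Array medians lay between 6.60 and 6.68 on the log2 scale. Genes of tissues unrelated to brain, 11 in number, averaged 6.25 to 6.85 over the 4 arrays. The filter on dim genes, at 6.42, lies within this range, and 7 of the 11 passed it. Passing the filter therefore does not show expression, and shares of all tested genes include genes at this level. Astrocyte and neural stem cell markers, at 8.51 to 12.70, were far above the range of unrelated tissues. Microglial markers (6.22 to 6.83) and vascular and fibroblast markers (6.21 to 6.85) were not.

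The gene span and the region before the annotated start were looked up in RefSeq. Meis1 lies on chromosome 11 (18880428 to 19019651), Meis2 on chromosome 2 (115861264 to 116067537) and Tgif1 on chromosome 17 (70844205 to 70853532) in GRCm38.p6. RefSeq windows before a start were matched for 5 of the 8 genes, 9 windows in all, and the 250 bases upstream of each start were searched on both strands. The core recognised by MEIS, PKNOX and TGIF proteins, TGACAG, was found in 0 of the 9, against 15.9% of all 32851 such windows, and the PBX core TGATTGAT in 0 of the 9, against 0.67%. The CCAAT box, a common promoter element, was found in 3 of the 9, against 33.8% of all windows, and neither of the other motifs overlaps it. No window was matched for Pbx3, Pknox1 and Pknox2. The 3 with the box, which belong to Meis1, Meis2 and Tgif1, are all shown, whatever the values of their genes. Each is 30 bases of the gene's own strand (minus in all 3) with the box, or its reverse complement, in capitals. The box begins 54 bases before the start of Meis1, 210 before that of Meis2 and 117 before 1 of the 5 annotated starts of Tgif1, and all 3 stretches lie within the annotated span of their gene, whose other transcripts start further upstream.
Meis1, chr11:19019006-19019035: acttgctgcagcCCAATgcattgtgtaaga
Meis2, chr2:116064812-116064841: atccaggagtttATTGGagcgcagactgat
Tgif1, chr17:70851834-70851863: ctgccttgcaatCCAATccggaactcagag

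The comparison asked how these transcripts differ with PARP inhibition in Pax6-transduced cultures 10 h after growth factor withdrawal. Meis1 was lower with olaparib and was the 1 member past the threshold, a limma adjusted p under 0.05. Meis2 lay nearly as far below its DMSO level but just missed that threshold, and Meis3 pointed the same way by a smaller amount. Tgif1 lay above its DMSO level without passing, and Pbx2, Pbx3, Pknox1 and Pknox2 had overlapping groups. Of the 8 members 1 was called lower and 0 higher, against 3.37% of all tested genes called lower, 2.84% called higher and 6.22% called in either direction. At an unadjusted p under 0.05 there were 3 members (Meis1, Meis2 and Tgif1), against 19.1% of all tested genes. The median change was -0.04 over the 8 members and 0.0013 over all genes tested.

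**Figure D1:**
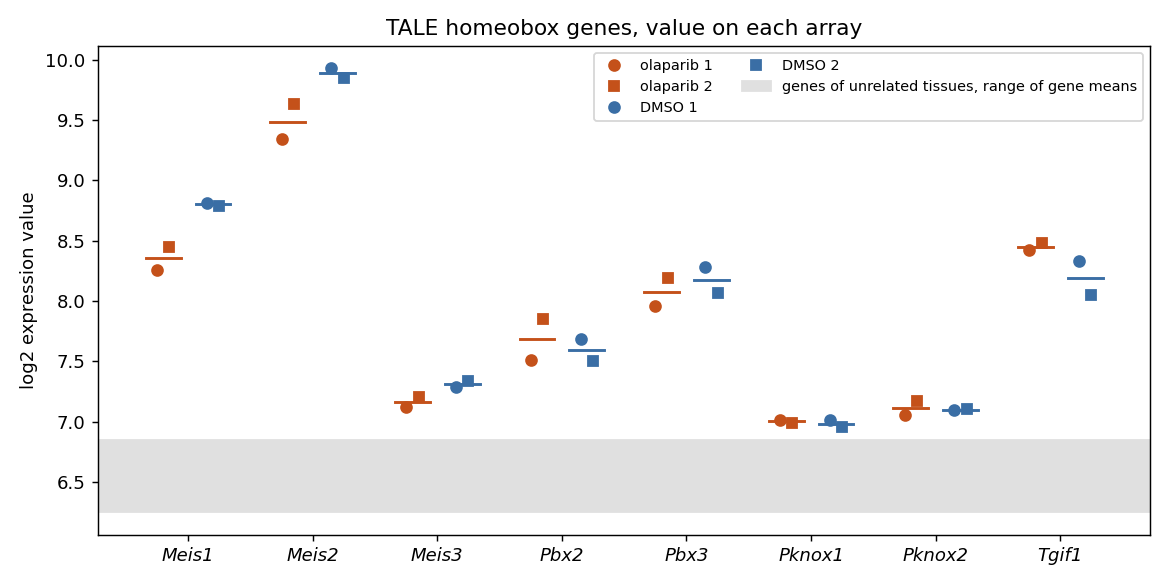
Log2 expression value of each of the 8 TALE genes on every array. Orange marks the 2 olaparib arrays and blue the 2 DMSO arrays, horizontal lines are group means, and the grey band spans the means of the 11 genes of unrelated tissues (6.25 to 6.85). The olaparib points lie below the DMSO points for Meis1, Meis2 and Meis3 and above them for Tgif1, and the groups overlap for the other 4 genes.

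Meis1 encodes a homeodomain cofactor that partners PBX and HOX proteins and, in the olfactory bulb, marks interneurons. Its log2 value was 8.26 and 8.45 on the olaparib arrays, against 8.81 and 8.79 on the DMSO arrays. Both olaparib arrays were under both DMSO arrays, and the DMSO pair lay 0.02 apart while the olaparib pair lay 0.19 apart. The nearest arrays of the 2 groups were separated by 0.34, which is more than either gap within a group. Meis1 averaged 8.36 ± 0.135 with olaparib and 8.80 ± 0.01 with DMSO (SD, n = 2 each), a change of -0.45 on the log2 scale (SE 0.10, 95% interval -0.66 to -0.23, adjusted p = 0.0116), or 0.73 of the DMSO level. The call was lost when either DMSO array was left out, under median centring and when all probe sets shared the fit (adjusted p 0.0512 to 0.202 in these 4 settings, and from 5.84e-05 to 0.202 over 15). With all 21704 probe sets sharing the fit 0 of the 8 members passed, against 0.0645% of those probe sets.

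Meis2, the MEIS protein that binds PAX6, had log2 values of 9.34 and 9.63 on the olaparib arrays and 9.93 and 9.84 on the DMSO arrays. The groups did not overlap, but the olaparib arrays lay 0.29 apart, further than the 0.21 that separated the nearest arrays of the groups. Its mean was 9.49 ± 0.20 with olaparib and 9.89 ± 0.06 with DMSO (SD, n = 2 each). The change of -0.40 (SE 0.12, 95% interval -0.65 to -0.15, adjusted p = 0.0533) did not pass. Its size depended on olaparib replicate 1, and was -0.26 without that array and -0.55 without olaparib replicate 2. Over 15 alternatives the adjusted p ran from 0.000111 to 0.633 and passed in 7.

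Meis3 is the third MEIS gene. Its log2 values were 7.12 and 7.20 with olaparib, against 7.29 and 7.34 with DMSO. The groups did not overlap, and both olaparib arrays were under both DMSO arrays. The change was -0.15 (SE 0.08, 95% interval -0.31 to 0.01, adjusted p = 0.314), and it passed in 0 of 15 alternatives. An effect of the size seen for Meis1 lies outside this interval. Meis3 averaged 7.24 over the 4 arrays, though, nearer to the range of unrelated tissues (6.25 to 6.85) than Meis1 at 8.58. Whether that lower level narrowed its change was not tested, nor whether the changes of the MEIS genes differ from each other.

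PBX proteins are the partners that MEIS and PKNOX proteins hold in the nucleus. Pbx2 had log2 values of 7.51 and 7.85 with olaparib and 7.69 and 7.51 with DMSO. Its arrays interleaved, and the change was 0.09 (95% interval -0.13 to 0.30, adjusted p = 0.758). Pbx3 had 7.96 and 8.19 with olaparib, against 8.28 and 8.07 with DMSO. It overlapped in the same way, with a change of -0.10 (95% interval -0.32 to 0.12, adjusted p = 0.698). The sign of both depended on which array was used. Leaving out 1 array at a time gave changes of -0.08 to 0.26 for Pbx2 and -0.22 to 0.01 for Pbx3. The olaparib arrays lay 0.34 apart for Pbx2, the widest such gap among the 8 members, and 0.23 apart for Pbx3.

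Pknox1 and Pknox2 encode PREP proteins, which compete with MEIS proteins for PBX. Pknox1 had log2 values of 7.01 and 6.99 with olaparib, against 7.02 and 6.96 with DMSO. Pknox2 had 7.06 and 7.17 with olaparib, against 7.10 and 7.11 with DMSO. The olaparib and DMSO arrays of both genes overlapped. Their changes were 0.02 (95% interval -0.14 to 0.18, adjusted p = 0.953) and 0.01 (95% interval -0.15 to 0.18, adjusted p = 0.964). Pknox1 and Pknox2 averaged 6.99 and 7.11 over the 4 arrays, not far above the range of unrelated tissues (6.25 to 6.85). Whether this level limited their changes was not tested.

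Tgif1, a repressor that recruits histone deacetylases to SMAD and retinoid receptor targets, had log2 values of 8.42 and 8.48 on the olaparib arrays and 8.33 and 8.05 on the DMSO arrays. Both olaparib arrays were above both DMSO arrays, yet the nearest arrays of the groups were 0.09 apart while the DMSO arrays differed by 0.29. The change was 0.26 (SE 0.11, 95% interval 0.04 to 0.48, adjusted p = 0.165). It was 0.12 without DMSO replicate 2 and 0.40 without DMSO replicate 1, and it passed in 1 of 15 alternatives, the one without olaparib replicate 1 (adjusted p = 0.0418, within a range of 0.0418 to 0.964).

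**Figure D2:**
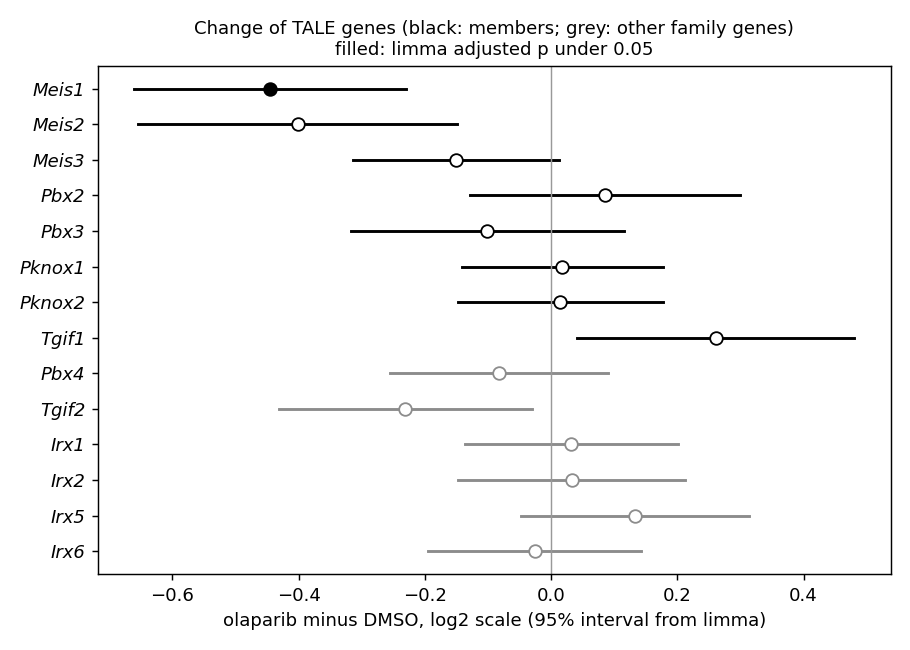
Change of each TALE gene, olaparib minus DMSO on the log2 scale, with its 95% interval from limma. The 8 members are in black and 6 other tested family genes in grey, and a filled point marks an adjusted p under 0.05. Meis1 has the filled point, and the intervals of Meis1, Meis2, Tgif1 and Tgif2 do not include 0.

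In 4 of the 8 genes the groups did not overlap, 3 with olaparib lower and 1 with olaparib higher, against 47.1% of all tested genes without overlap, 23.9% with olaparib lower and 23.2% with olaparib higher. Olaparib replicate 1 was below olaparib replicate 2 in 7 of the 8 (all but Pknox1), against 55.4% of all tested genes. The gap between the olaparib arrays had a median of 0.15 over the 8 genes, and the gap between the DMSO arrays of 0.07. Over all tested genes those medians were 0.11 and 0.07. With 2 arrays per group an exact permutation test of a single gene cannot go below p = 0.333, so every call rests on the spread that limma shares across genes.

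Other genes of the family were compared from a fixed list of 10, of which 9 had a probe set of their own and 6 were tested. Of all tested genes 6.22% were called in limma (3.37% lower and 2.84% higher) and 19.1% had an unadjusted p under 0.05. These shares also apply to the lists below. None of the 6 passed in limma, and 1 had an unadjusted p under 0.05. That gene was Tgif2, the close relative of Tgif1, with log2 values of 7.49 and 7.39 with olaparib and 7.82 and 7.52 with DMSO. Its change of -0.23 (SE 0.10, adjusted p = 0.181) had the opposite sign to that of Tgif1. It was -0.08 without DMSO replicate 1 and -0.38 without DMSO replicate 2, and it passed in 1 of 15 alternatives, the one without olaparib replicate 1 (adjusted p = 0.0487, within a range of 0.0487 to 0.999). Pbx4 changed by -0.08 (adjusted p = 0.692). The Iroquois genes and Mkx averaged 6.36 to 6.75 over the 4 arrays, within the range of unrelated tissues, and Irx5, the one among them with the smallest p, changed by 0.13 (adjusted p = 0.459).

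HOX proteins are the classic partners of PBX and MEIS in the trunk and hindbrain. The 28 Hox genes measured had means over the 4 arrays of 6.11 to 6.91, and 7 of them passed the filter on dim genes. Hoxb9 changed by 0.15 (adjusted p = 0.372) and Hoxb3 by -0.09 (adjusted p = 0.618). None of the 7 passed in limma and 0 had an unadjusted p under 0.05.

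Among 16 tested partners and regulators of TALE proteins, 1 was higher and 1 lower, against 2.84% and 3.37% of all tested genes. Smad3, a TGF-beta effector that TGIF1 represses, rose, with log2 values of 8.06 and 8.36 on the olaparib arrays, against 7.68 and 7.63 on the DMSO arrays. The change was 0.55 (SE 0.10, adjusted p = 0.00176), and it was 0.40 to 0.70 with 1 array left out. Hdac3, a histone deacetylase of corepressor complexes, fell by 0.31 (SE 0.09, adjusted p = 0.0468). Hdac3 lost its call in 5 of 15 alternatives and Smad3 lost it when all probe sets shared the fit (adjusted p up to 0.655 for Hdac3 and 0.125 for Smad3).

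Retinoic acid is a known inducer of Meis1, Meis2 and Pbx genes. Of 14 tested genes of the retinoic acid pathway, 2 rose and 0 fell, against 2.84% and 3.37% of all tested genes. The median change of the 14 was 0.03. Rdh10, which oxidises retinol towards retinoic acid, had log2 values of 8.30 and 8.37 with olaparib and 8.04 and 7.92 with DMSO, a rise of 0.35 (SE 0.09, adjusted p = 0.0277). The receptor gene Rxra rose by 0.29 (SE 0.08, adjusted p = 0.0414). Neither call held when a DMSO array was left out, nor without a filter, under median centring or with all probe sets in the fit, and Rxra lost its call in 2 further settings (adjusted p up to 0.490 for Rdh10 and 0.436 for Rxra). Of 12 tested genes of TGF-beta signalling 0 passed in limma. An unadjusted p under 0.05 was reached by 1 of them, against 19.1% of all tested genes. These 12 leave out the effectors Smad3, which passed, and Smad2, which were counted among the partners of TALE proteins. Smad2, named here after its values were seen, had log2 values of 8.75 and 8.78 with olaparib and 8.40 and 8.48 with DMSO, a change of 0.32 (adjusted p = 0.0583). The gene of the 12 with that p was Ltbp1, which encodes a protein that stores latent TGF-beta in the matrix, with a change of 0.27 (adjusted p = 0.104). Skil, a SMAD corepressor, changed by -0.16 (adjusted p = 0.298).

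The neurogenic genes downstream of or beside Pax6 give the setting in which Meis1 and Meis2 were measured. Pax6 itself stood at 9.45 and 9.61 on the olaparib arrays, against 9.48 and 9.46 on the DMSO arrays (change 0.06, 95% interval -0.18 to 0.29, adjusted p = 0.869). Of 22 tested genes of this list, 7 fell and 0 rose, with a median change of -0.21. Dcx, a microtubule-binding protein of migrating neuroblasts to whose locus PAX6 and MEIS2 are known to bind, fell to 8.02 and 8.12 with olaparib, against 9.04 and 9.20 with DMSO (change -1.05, SE 0.10, adjusted p = 4.36e-06). Gad2, Myt1, Prox1, Nfia and Pou3f4 fell by 0.67, 0.61, 0.58, 0.56 and 0.41. All of these 5 lost their calls with all probe sets in the fit, Prox1 also without DMSO replicate 1, and Nfia and Pou3f4 without either DMSO array (adjusted p 0.0523 to 0.226). Gad2 and Myt1 averaged 6.77 and 6.78 with olaparib, within the range of unrelated tissues (6.25 to 6.85). Whether this level limited their changes was not tested. Earlier results of these data already showed falls in the list of neurogenic genes, so its direction is not independent evidence.

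A further list held 8 tested genes, namely the drug's targets Parp1 and Parp2, Parg and 5 genes of linker histones. Parg encodes the enzyme that removes poly(ADP-ribose), and PARP1 is known to displace linker histones from chromatin. Of the 8 genes 0 passed in limma and 1 had an unadjusted p under 0.05, against 19.1% of all tested genes. Parp1 changed by -0.04 (adjusted p = 0.913) and Parp2 by -0.10 (adjusted p = 0.622). The gene with that p was H1f10, a replication-independent linker histone, at -0.20 (adjusted p = 0.176).

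Some markers of more than one cell type moved in the same direction as Meis1 and Meis2. Of 7 tested neuroblast markers 3 fell and 0 rose past the threshold. The list of 8 averaged 7.64 and 7.70 on the olaparib arrays, against 8.04 and 8.03 on the DMSO arrays. The 3 were Dcx (-1.05), Nsg2 (-0.74) and Map2 (-0.55). Tubb3 changed by -0.32 without passing, and Elavl3 (-0.09), Elavl4 (-0.07) and Rbfox3 (0.01) changed little. Elavl4, Rbfox3 and the untested Stmn2 averaged 6.54, 6.54 and 6.37 over the 4 arrays, within the range of unrelated tissues. Dcx and Tubb3 also belong to the list of neurogenic genes. Of 8 astrocyte and neural stem cell markers 2 fell and 0 rose past the threshold, with averages of 10.20 and 10.40 with olaparib, against 10.58 and 10.60 with DMSO. The 2 were Gfap (-1.03) and Aqp4 (-0.71). Of the 8 changes 7 were negative, those of Fabp7 (-0.03) and Slc1a2 (-0.10) being small. That of Nes was positive (0.23, limma adjusted p = 0.205). Of 7 oligodendrocyte lineage markers 1 rose and 0 fell, and of 4 ependymal markers and 5 markers of cycling cells 0 passed in limma (an unadjusted p under 0.05 was reached by 1 ependymal and 0 cycling markers). The part of these markers in the differences of Meis1 and Meis2 was not tested, and in a mixed culture fewer cells of a type and less RNA per cell cannot be told apart.

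The genes whose pattern was most like each MEIS gene were found by the root mean square difference over the 4 arrays after each gene was centred on its own mean. For Meis1 they were Vgll4, a cofactor of TEAD factors, at 0.010, Abcc4, an exporter of cyclic nucleotides, at 0.011, Oat at 0.017, Mgat5, an enzyme of N-glycan branching, at 0.018 and Podxl at 0.021. Vgll4 had log2 values of 9.47 and 9.68 with olaparib and 10.05 and 10.02 with DMSO. Picked by likeness to Meis1 on these same arrays, it was bound to repeat the close DMSO pair and the lower first olaparib array. For Meis2 they were Nfix at 0.013, Tmx4 at 0.017, Zfp580 at 0.018, Pigs at 0.020 and Pnmal2 at 0.020. Nfix, a nuclear factor I protein of neural stem cells and neuroblasts, had 10.47 and 10.78 with olaparib and 11.08 and 11.01 with DMSO. Its change of -0.42, close to that of Meis2 by the same choice, narrowly missed the threshold (adjusted p = 0.0552). Among the 13956 genes tested, Meis2 was the 63rd in likeness to Meis1, and Meis1 the 56th in likeness to Meis2, at a difference of 0.047.

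**Figure D3:**
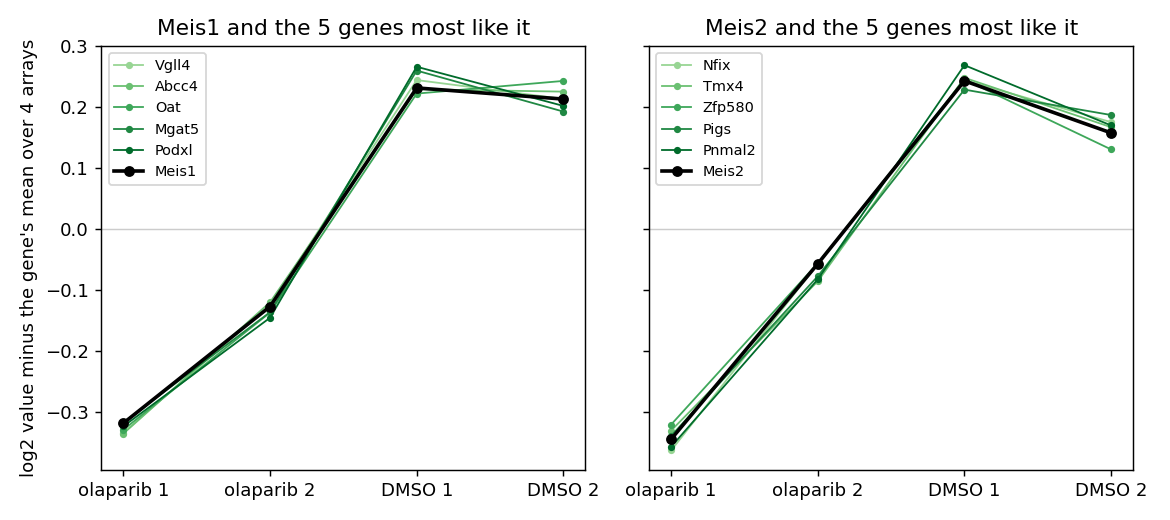
Log2 value on each array minus the gene's mean over the 4 arrays, for Meis1 (left, black) and Meis2 (right, black) and the 5 genes most like each (green). In both panels the first olaparib array is lowest and the 2 DMSO arrays are highest, and the second olaparib array lies nearer to 0 for Meis2 than for Meis1.

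The dependence of the 2 MEIS genes on the processing was then set side by side. The change of Meis1 lay between -0.54 and -0.35 over all settings and that of Meis2 between -0.55 and -0.26, so neither changed sign. The groups of both genes did not overlap, so leaving out an array could not turn either sign. Apart from the left-out arrays, only the other normalizations altered the size of the changes. Both ends of each range came from leaving out an olaparib array. Quantile normalization gave -0.47 for Meis1 and -0.45 for Meis2, and both then passed (adjusted p = 0.00233 and 0.00534, within ranges of 5.84e-05 to 0.202 and 0.000111 to 0.633).

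**Figure D4:**
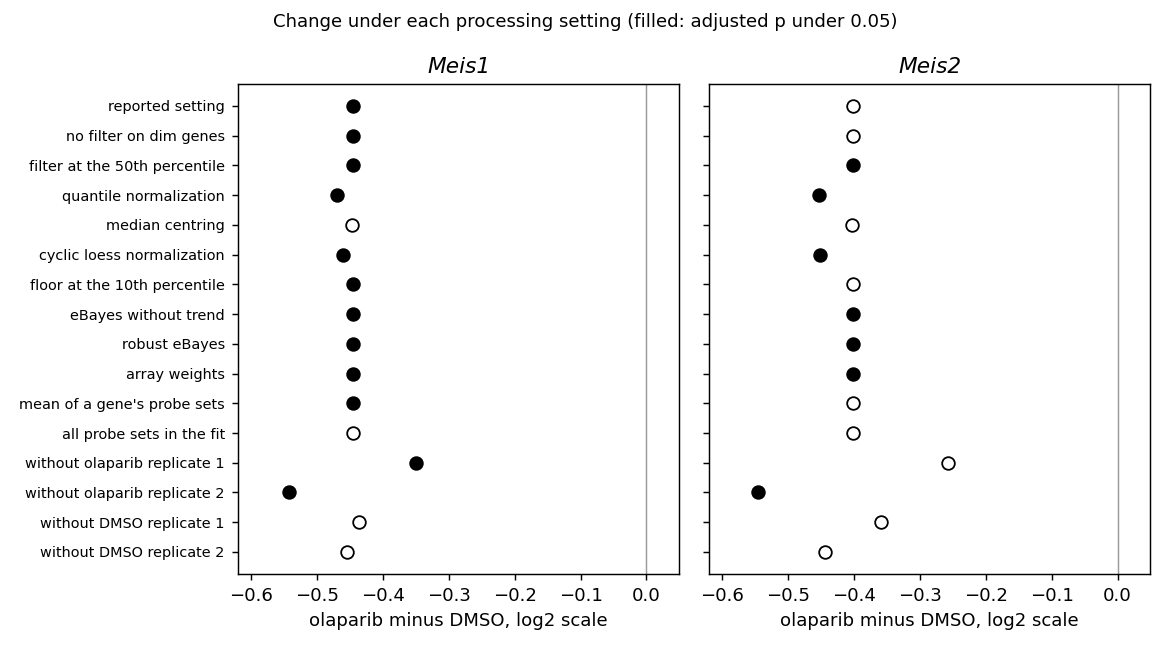
Change of Meis1 (left) and Meis2 (right), olaparib minus DMSO on the log2 scale, under the reported setting and 15 alternatives. Filled points have an adjusted p under 0.05. Only the other normalizations and the left-out arrays move a point along the scale. The floor and the mean of probe sets leave the values of both genes as they are, since each has 1 probe set, above the floor. Every point lies below 0, and Meis1 is filled in 11 of the 15 alternatives and Meis2 in 7.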

How the data were processed

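Total RNA (40 ng per sample) was amplified, biotin labelled and hybridised to Affymetrix mouse gene arrays, per the labels' protocols. The log2 values used here are those the authors deposited, 1 per probe set and array. Their background correction, normalization and probe summary are not given in the sources used here. A single gene was annotated to 21640 of the 34760 probe sets. Where a gene had several probe sets, the brightest on average stood for it, and genes with a mean above the 30th percentile (6.42) were tested. Changes are olaparib minus DMSO, fitted in R 4.3.3 with limma 3.58.1 (lmFit, then eBayes with a mean-variance trend). Tests were two-sided, p-values were adjusted by the Benjamini-Hochberg method across the 13956 genes, and the threshold was 0.05. The prior was worth 18.1 degrees of freedom and the arrays 2. Every adjusted p is limma's. P-values measure the spread between these arrays only, and the number of arrays limits the precision. The fit was tried on 20 simulated data sets whose spread was drawn from its own prior, which favours it. It recovered 57.2% of genes changed 1.3-fold, 96% of those changed 1.5-fold and 99.9% of those changed 2-fold. Of its calls 4.46% were false. Symbols and sequences are from RefSeq (GRCm38.p6).

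The members, lists and tests were chosen with earlier results of these data known. Named genes are the members, Pax6, Dcx, Parp1 and Parp2, up to 6 genes past the threshold per list (otherwise the 2 of smallest p), and the 5 genes most like Meis1 and Meis2. Alternatives were other filters, normalizations, floors, priors and weights, the mean of probe sets, all 21704 probe sets in 1 fit (prior worth 5.25), an adjusted p of 0.1, and leaving out each array. Plots were made in Python 3.11.15 with matplotlib 3.10.9.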

Additional observations from a re-analysis of the deposited data

How the results depend on the processing

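The number of TALE genes past the threshold was 1 as reported. It was 0 under median centring and with all probe sets in the fit, and 2 (Meis1 and Meis2) with quantile normalization, array weights, a filter at the 50th percentile, cyclic loess, robust eBayes, eBayes without trend and an adjusted p of 0.1. With 1 array left out it ran from 0 to 2. In every one of these settings Meis1, Meis2, Meis3 and Tgif1 kept their signs. Their groups did not overlap, so leaving out 1 array could not turn a sign. Only the other normalizations and the left-out arrays altered the size of their changes. Of all genes tested, 397 were higher and 471 lower, and those counts were 1 and 11 with all probe sets in the fit and 606 and 715 at an adjusted p of 0.1. Without a filter 257 were higher, and 774 were lower with quantile normalization and 732 with cyclic loess. With 1 array left out, 97 to 1274 were higher and 161 to 1032 lower. A left-out array leaves 1 array in a group, which is assumed to vary like the other pair. When 1 array was left out the sign turned for Pbx2 (changes of -0.0849 to 0.255), Pbx3 (-0.216 to 0.0130), Pknox1 (-0.0124 to 0.0478), Pknox2 (-0.0421 to 0.0716), Pax6 (-0.0188 to 0.136) and Parp1 (-0.119 to 0.0490), and for none of these 6 in the other 11 alternatives. The cause of these shifts was not tested. Of the 11 alternatives that left no array out, only the other normalizations altered the changes of these genes. No paired analysis was possible because the labels pair no arrays across the groups.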
